A study of Xenopus tropicalis with 26 samples.

Results

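The transcripts arpc3, tmem203, cops6, ppia, eno1, rbbp7 and nemp1 were read in every library. They are 7 of the 28778 genes in the count table and all 7 were among the 12883 genes with enough counts to be tested. They were chosen by their counts, which were lower in Xenopus tropicalis embryos injected with a morpholino (MO), an antisense oligonucleotide, against E2f1 than in wildtype embryos at both stage 7 and stage 8, and higher again when an mRNA was injected along with the MO. The set was selected on those differences, so every comparison between groups that carry the MO, or of such a group with one that does not, is given as a description without a test of the members. Tests are given only for embryos without the MO and for genes outside the set.

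RNA of whole embryos was sequenced in 26 libraries, which form 13 groups of 2. Wildtype, untreated embryos were collected at stages 6, 7 and 8, which span late cleavage and the approach to the mid-blastula. At stages 7 and 8 further groups carried the E2f1 MO alone, the MO with mRNA of E2f1, the MO with mRNA of deltaDBD (by its name an E2f1 lacking the DNA-binding domain), the MO with mRNA of Cdkn1a, or Cdkn1a mRNA alone. No label describes a group injected with a control MO, nor E2f1 or deltaDBD mRNA without the MO, and the labels do not say whether the MO blocks translation or splicing, or whether the 2 libraries of a group came from separate clutches. P-values therefore measure only how far these libraries vary, and that variation may be technical.

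E2f1 is a transcription factor best known for activating genes of the cell cycle, and Cdkn1a, also called p21, is an inhibitor of cyclin-dependent kinases. The frog egg holds a large store of messenger RNA on which the first divisions run, and strong transcription from the zygotic genome begins around the mid-blastula. The 7 transcripts encode proteins with separate housekeeping roles, in actin assembly, membranes, protein folding and turnover, sugar breakdown, chromatin and the nuclear envelope.

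In the table's v10 build, all 7 lie on the minus strand, against 50.3% of tested genes, on 5 chromosomes. The gene arpc3 is on chromosome 1 (162786692 to 162796502, 7 exon blocks), tmem203 on chromosome 8 (1758366 to 1768676, 2 exon blocks) and cops6 on chromosome 3 (144238022 to 144244933, 11 exon blocks). Also on chromosome 3 is ppia (126267698 to 126273655, 5 exon blocks), and eno1 is on chromosome 7 (89623222 to 89636910, 14 exon blocks). Chromosome 2 holds both rbbp7 (94685088 to 94693637, 12 exon blocks) and nemp1 (139207441 to 139218871, 10 exon blocks). Their summed exon lengths ran from 713 to 2305 bases, all 7 below the median of 2708 bases over tested genes. Per kilobase of exon, ppia was the most abundant in stage 7 wildtype embryos at 287 CPM (counts scaled to a common library size) per kilobase. It was followed by rbbp7 at 86.5, nemp1 at 52, eno1 at 51.6, cops6 at 21.7, arpc3 at 18.8 and tmem203 at 17.4 CPM per kilobase. The lowest count of any of the 7 in any library was 45, for tmem203, and the highest was 5396, for ppia.

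Libraries held 14071614 to 19032710 counted fragments. As a check of the injections, the cdkn1a transcript stood at 239 to 298 CPM as the mean of the 4 groups given its mRNA, and e2f1 at 2050 to 3010 CPM in the 4 groups given an E2f1 construct. In stage 7 wildtype they stood at 3.65 ± 0.36 and 440 ± 9.2 CPM (SD, n = 2). An MO need not lower the level of its target transcript, so the e2f1 level does not check the knockdown. Defining markers of early embryos were present, with 6 of 6 stored egg transcripts listed at a summed 1860 to 3450 CPM. Of these, grip2 (log2 differences -1.17 and -0.77), ddx25 and velo1 were themselves called lower with the MO at stages 7 and 8. They are thus a check of the kind of embryo, not of an unchanged level. The 7 early zygotic markers listed summed to 0 to 54.7 CPM. None of the markers read for differentiated tissues, follicle or testis exceeded 0.27 CPM in any library. The 2 stage 8 MO libraries differed from each other more than any other pair, by a chi-square of 12.4 per gene against 1.81 to 2.26 in the other 12 groups. For 6 of the 7 transcripts, all but arpc3, the level was higher in replicate 2 than in replicate 1 of that group, by 0.10 to 0.80 on the log2 scale.

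**Figure D1:**
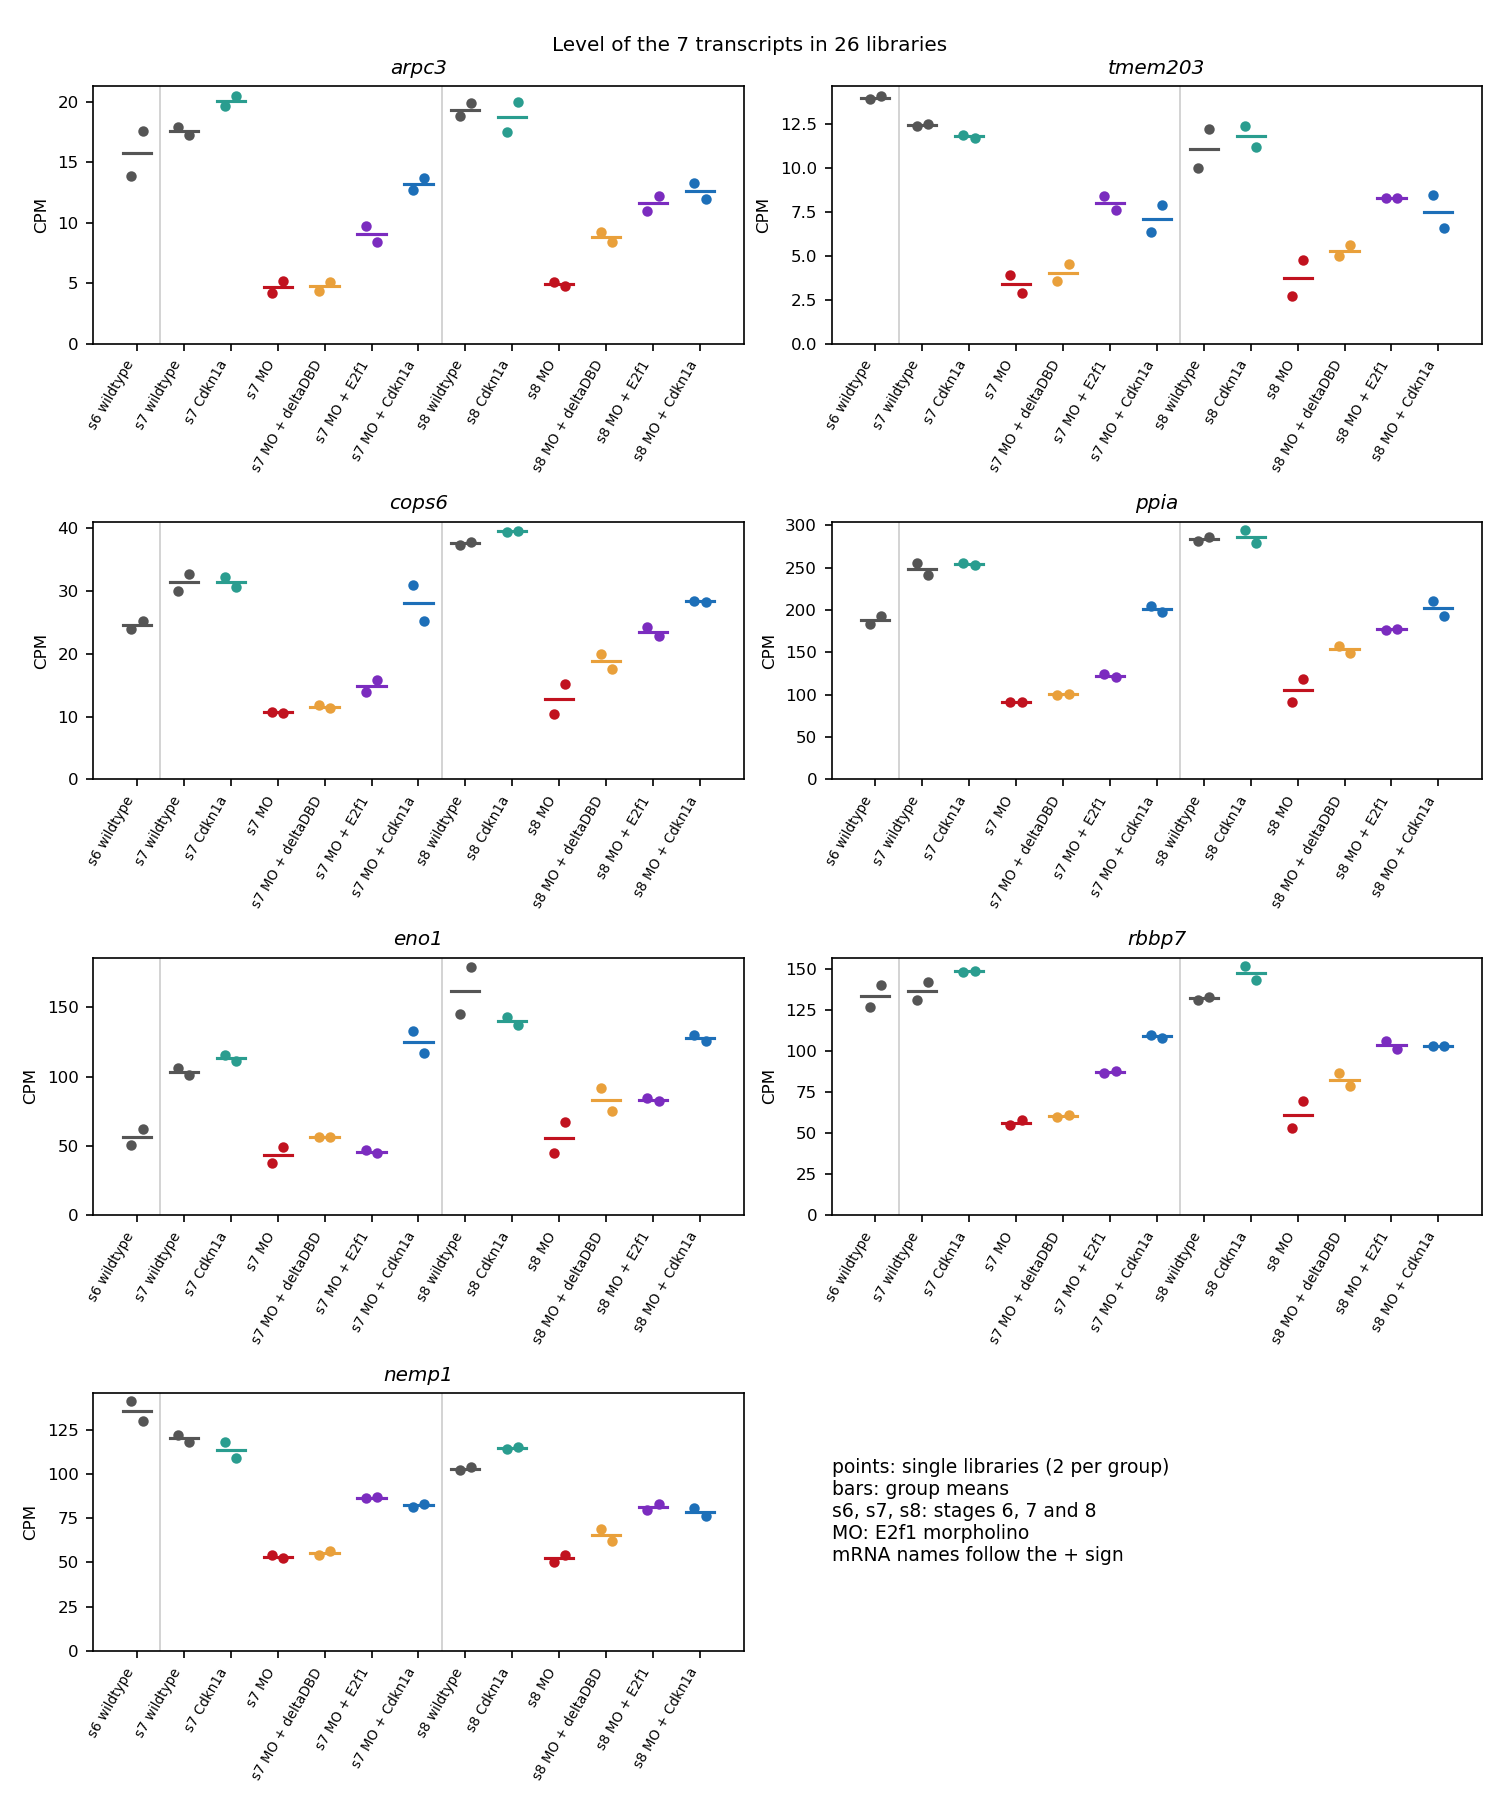
CPM of the 7 transcripts (vertical axes, from 0) in each of the 13 groups, with each point a library and each bar a group mean of 2. The MO-alone libraries lie below every library without the MO for 6 transcripts, and eno1 overlaps the stage 6 wildtype.

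Of the 7, arpc3 had the lowest level in MO embryos relative to wildtype. It encodes a subunit of the Arp2/3 complex, which nucleates branched actin filaments. Its level was 13.9 and 17.6 CPM in the stage 6 wildtype libraries, 17.9 and 17.3 CPM at stage 7 and 18.8 and 19.9 CPM at stage 8. With the MO it was 4.22 and 5.19 CPM at stage 7 and 5.06 and 4.76 CPM at stage 8, so that no MO library came near a wildtype one. That is 3.75-fold lower at stage 7 and 3.94-fold lower at stage 8 (log2 differences -1.91 and -1.98, SE 0.14 at each stage). Adding deltaDBD mRNA left arpc3 at 4.33 and 5.13 CPM at stage 7, within the range of the MO libraries, but at 9.25 and 8.37 CPM at stage 8, above them. With E2f1 mRNA the level was 9.73 and 8.37 CPM at stage 7 and 11 and 12.2 CPM at stage 8. Co-injected Cdkn1a mRNA gave 12.7 and 13.7 CPM at stage 7 and 13.3 and 12 CPM at stage 8. These values lie above all libraries with the MO alone and below all stage 7 and 8 libraries without it. Cdkn1a mRNA alone gave 19.7 and 20.5 CPM at stage 7 and 17.5 and 20 CPM at stage 8.

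The membrane protein gene tmem203 encodes a small protein of the endoplasmic reticulum, tied in mammals to calcium handling. It had the fewest counts of the set. Wildtype libraries held 13.9 and 14.1 CPM at stage 6, 12.4 and 12.5 at stage 7 and 10 and 12.2 at stage 8. MO libraries held 3.9 and 2.86 CPM at stage 7 and 2.74 and 4.76 CPM at stage 8, log2 differences of -1.87 (SE 0.19) and -1.57 (SE 0.19). Every MO library was thus below 5 CPM and every library without the MO at or above 10 CPM. With E2f1 mRNA the level was 8.42 and 7.61 CPM at stage 7 and 8.3 and 8.32 CPM at stage 8. With Cdkn1a mRNA it was 6.34 and 7.87 CPM at stage 7 and 8.47 and 6.56 CPM at stage 8. The E2f1 and Cdkn1a mRNA groups overlapped at both stages, and both lay between the MO and wildtype libraries. With deltaDBD mRNA tmem203 stood at 3.54 and 4.51 CPM at stage 7 and 4.97 and 5.63 CPM at stage 8, just above the MO libraries at stage 8 and overlapping them at stage 7. In embryos given Cdkn1a mRNA alone the values were 11.9 and 11.7 CPM at stage 7 and 12.4 and 11.2 CPM at stage 8.

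A subunit of the COP9 signalosome, which removes Nedd8 from cullin ubiquitin ligases, is encoded by cops6. In wildtype its level was 23.9 and 25.3 CPM at stage 6, 30.1 and 32.7 at stage 7 and 37.4 and 37.8 at stage 8. MO embryos had 10.8 and 10.6 CPM at stage 7 and 10.5 and 15.2 CPM at stage 8, a log2 difference of -1.55 at each stage (SE 0.12 and 0.11). The stage 7 level with Cdkn1a mRNA and the MO was 31 and 25.2 CPM, and 1 of these 2 libraries lay within the wildtype range. At stage 8 that group was at 28.4 and 28.3 CPM, below both wildtype libraries. E2f1 mRNA gave 14 and 15.8 CPM at stage 7 and 24.3 and 22.8 CPM at stage 8, and deltaDBD mRNA 11.8 and 11.3 CPM at stage 7 and 20 and 17.6 CPM at stage 8. For cops6 the stage 7 level with E2f1 mRNA was thus nearer to MO embryos than to wildtype ones, and the stage 8 level about midway on the log2 scale. Cdkn1a mRNA alone gave 32.3 and 30.7 CPM at stage 7 and 39.5 and 39.6 CPM at stage 8.

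Cyclophilin A, a peptidyl-prolyl isomerase that helps proteins fold, is encoded by ppia. Wildtype libraries held 184 and 193 CPM at stage 6, 255 and 241 at stage 7 and 281 and 286 at stage 8. MO libraries held 91 and 91.8 CPM at stage 7 and 91.9 and 119 CPM at stage 8, log2 differences of -1.44 and -1.43 (SE 0.07 each). Over the alternative fits, which include those with 1 library left out, the stage 8 value ran from -1.62 to -1.25, wider than that SE shows. The order of the injected groups was the same as for cops6. At stage 7 deltaDBD mRNA with the MO gave 100 and 101 CPM, E2f1 mRNA 124 and 121 CPM and Cdkn1a mRNA 205 and 198 CPM. At stage 8 the same groups held 158 and 149 CPM, 176 and 178 CPM and 211 and 193 CPM, and none overlapped another. With Cdkn1a mRNA alone ppia stood at 256 and 253 CPM at stage 7 and 294 and 279 CPM at stage 8.

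The glycolytic enzyme enolase is encoded by eno1, which differed most from the rest of the set. In wildtype it was at 50.3 and 62.4 CPM at stage 6, 106 and 101 at stage 7 and 145 and 179 at stage 8. MO embryos had 38 and 49.3 CPM at stage 7 and 44.6 and 67.3 CPM at stage 8, log2 differences of -1.25 and -1.53 (SE 0.17 each). It was the 1 transcript of the 7 whose MO libraries overlapped the stage 6 wildtype ones. With Cdkn1a mRNA and the MO it stood at 133 and 117 CPM at stage 7, above both wildtype libraries, and at 130 and 126 CPM at stage 8, below both. E2f1 mRNA gave 47 and 44.9 CPM at stage 7, within the range of the MO libraries, and 84.4 and 82.5 CPM at stage 8. Levels with deltaDBD mRNA were 56.4 and 56.6 CPM at stage 7 and 91.7 and 75.1 CPM at stage 8, so that the 2 constructs overlapped at stage 8 and deltaDBD was the higher one at stage 7. Cdkn1a mRNA alone gave 116 and 111 CPM at stage 7 and 143 and 137 CPM at stage 8. The gene ca6 overlaps eno1 on the other strand, and the stranded counting gave it at most 6 counts in a library.

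The last pair, rbbp7 and nemp1, encode proteins of the nucleus. The product of rbbp7 is a histone-binding protein found in complexes that modify and assemble chromatin. It was at 127 and 140 CPM at stage 6, 131 and 142 at stage 7 and 131 and 133 at stage 8 in wildtype, a nearly level course. MO embryos had 54.8 and 57.7 CPM at stage 7 and 53.1 and 69.3 CPM at stage 8, log2 differences of -1.28 and -1.11 (SE 0.075 each). With the MO and deltaDBD, E2f1 or Cdkn1a mRNA, stage 7 levels were 59.5 and 60.8, 86.4 and 88.1, and 110 and 108 CPM. At stage 8 they were 86.3 and 78.7, 106 and 101, and 103 and 103 CPM. The 3 mRNA groups were thus separate at stage 7, while E2f1 and Cdkn1a mRNA overlapped at stage 8. Cdkn1a mRNA alone gave 148 and 149 CPM at stage 7 and 152 and 143 CPM at stage 8, above both wildtype libraries at each stage.

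The product of nemp1 is an inner nuclear membrane protein studied in Xenopus eye formation. In wildtype it was at 141 and 130 CPM at stage 6, 122 and 118 at stage 7 and 102 and 104 at stage 8. With the MO it was 53.9 and 52.7 CPM at stage 7 and 50.4 and 54.1 CPM at stage 8, log2 differences of -1.17 (SE 0.057) and -0.98 (SE 0.058), the mildest of the set. The 2 MO libraries lay close together at each stage. Levels with deltaDBD mRNA were 54.3 and 56.7 CPM at stage 7 and 68.6 and 62 CPM at stage 8, with E2f1 mRNA 86.4 and 86.8 CPM and 79.5 and 82.9 CPM, and with Cdkn1a mRNA 81.1 and 83.2 CPM and 80.8 and 76.1 CPM. E2f1 mRNA thus gave a higher stage 7 level than Cdkn1a mRNA, and these groups overlapped at stage 8. Cdkn1a mRNA alone gave 118 and 109 CPM at stage 7 and 114 and 115 CPM at stage 8.

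Over the set, the median log2 difference between MO and wildtype was -1.44 at stage 7 and -1.53 at stage 8, where the medians over all tested genes were 0.008 and -0.006. The 7 were at 26.8 to 44.5% of their wildtype level at stage 7 and at 25.3 to 50.8% at stage 8. Over all tested genes, 12.5% were called lower at stage 7 and 2.6% at stage 8 (edgeR quasi-likelihood test, Benjamini-Hochberg adjusted p under 0.05), and nothing is read from the members' count against those shares. Without replicate 1 of the stage 8 MO group, the 7 log2 differences at stage 8 ran from -2.01 for arpc3 to -0.91 for rbbp7. In whole embryos, fewer cells that hold a transcript and less of it per cell cannot be told apart. The libraries were made from polyA RNA, so all levels are of polyadenylated transcript. Transcript without a polyA tail was not measured.

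How far each mRNA brought the level back was expressed as the share of the log2 loss regained, 0% being the MO level and 100% the wildtype level. With Cdkn1a mRNA the median share over the 7 was 78.5% at stage 7 and 68.1% at stage 8. The range at stage 7 was wide, from 53.5% for nemp1 to 122.2% for eno1, and that at stage 8 narrower, from 59.8% for nemp1 to 78.1% for eno1. With E2f1 mRNA the median was 49.4% at stage 7 and 62.8% at stage 8. There tmem203 had the highest share, 66.2% and 73.3%, and eno1 the lowest, 6.3% and 37.8%. The transcripts that regained least with Cdkn1a mRNA at stage 7, nemp1 and tmem203, were those that regained most with E2f1 mRNA, and eno1 was at the other end of both. In wildtype, nemp1 and tmem203 also had lower means at stage 7 than at stage 6 (log2 -0.18 and -0.17), and eno1 rose most (0.87). A link was not tested. Over all tested genes at stage 7, edgeR called 2892 higher and 2957 lower when E2f1 mRNA was added to the MO (adjusted p under 0.05). For Cdkn1a mRNA the calls were 144 and 36, and for deltaDBD mRNA 2 and 2. With deltaDBD mRNA the median was 7.7% at stage 7, where eno1 had 30.1% and the other 6 at most 12.9%, and 37.7% at stage 8, where the 7 lay between 32.2 and 42.5%. The stage 8 shares rest on the MO pair that differed most. Without its replicate 1 the deltaDBD shares ran from 12.1% for tmem203 to 43.5% for arpc3 with a median of 26.2%, and without its replicate 2 from 36.1% for nemp1 to 48.4% for eno1 and rbbp7. The stage 8 medians with Cdkn1a and E2f1 mRNA were 61.4 and 62% without MO replicate 1, and 71.1 and 62.9% without MO replicate 2. With all libraries, tmem203, nemp1 and, by little, rbbp7 (68.7 against 68.1%) regained more with E2f1 than with Cdkn1a mRNA at stage 8. The rest regained less. The eno1 share with E2f1 mRNA at stage 8 was 23.9% without MO replicate 1. At stage 7 it ran from -10.1 to 18.7% without one or the other MO library. All 3 mRNAs share the same MO and wildtype libraries in these shares, so the shares are not independent of each other. On the linear CPM scale they were smaller in 41 of 42 cases, the exception being eno1 with Cdkn1a mRNA at stage 7.

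**Figure D2:**
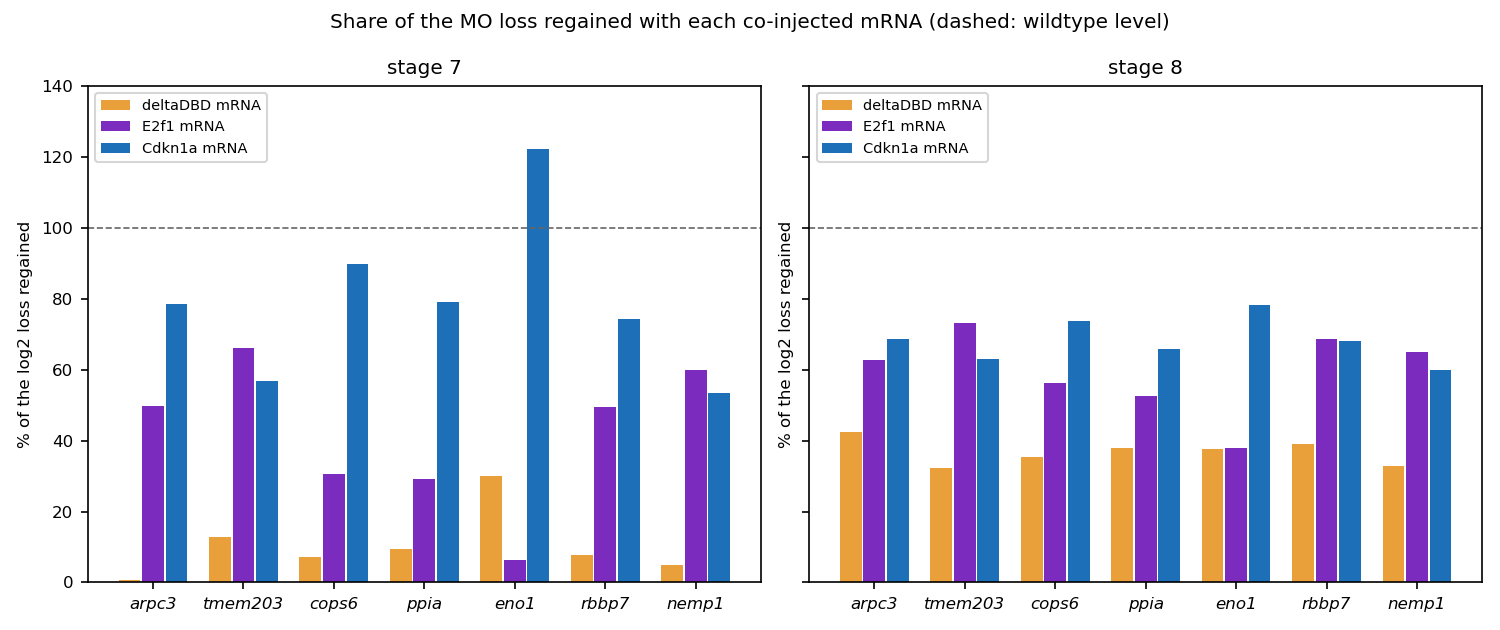
Share of the MO loss regained on the log2 scale (vertical axis, %) for each transcript with deltaDBD, E2f1 or Cdkn1a mRNA, at stages 7 and 8, from group means of 2 libraries. Cdkn1a mRNA bars run from 53.5 to 122.2% at stage 7, and deltaDBD bars have a median of 7.7% at stage 7 and 37.7% at stage 8.

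The comparisons among embryos without the MO were not used to choose the 7, although the wildtype libraries were. Whether Cdkn1a mRNA moved the transcripts in embryos without the MO was read first. None of the 7 passed the test at stage 7, where 4.75% of all tested genes did, and none at stage 8, where 6.22% did (edgeR quasi-likelihood, adjusted p). The smallest adjusted p by that test were those of rbbp7 and nemp1 at stage 8, both 0.16 higher on the log2 scale (adjusted p = 0.196 and 0.0726). DESeq2 called 0 of 7 at both stages and gave no adjusted p for 3 of them at stage 7. The differences at stage 7 ran from -0.08 for tmem203 (95% interval -0.39 to 0.23) to 0.19 for arpc3 (-0.05 to 0.42), and at stage 8 from -0.21 for eno1 (-0.53 to 0.12) to 0.16. With the libraries of stage 7 alone in the fit rbbp7 passed (0.12, adjusted p = 0.0477), and without a count filter eno1 passed at stage 8 (-0.21, adjusted p = 0.00658).

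The MO was also read in embryos that all had Cdkn1a mRNA. The libraries with both were used to choose the set, so these differences too are a description. At stage 7 the level with the MO was lower in all 4 pairings of libraries for 5 of the 7, with log2 differences of -0.73 for tmem203 (SE 0.16), -0.60 for arpc3 (SE 0.12), -0.47 for nemp1, -0.45 for rbbp7 and -0.34 for ppia. For cops6 it was -0.16 (95% interval -0.37 to 0.04), and eno1 was the 1 transcript with a higher level, by 0.14 (-0.20 to 0.48). At stage 8 all 7 were lower in all 4 pairings, from -0.67 for tmem203 to -0.13 for eno1 (-0.46 to 0.20), with cops6 at -0.48. Over all 12883 tested genes, edgeR called 637 higher and 331 lower with the MO at stage 7, and 300 and 220 at stage 8 (adjusted p under 0.05). The share of all genes separate in all 4 pairings is not given, so nothing is read from the members' counts. Set beside the MO differences without Cdkn1a mRNA, medians over the 7 were -0.45 against -1.44 at stage 7 and -0.52 against -1.53 at stage 8. The comparison nearly repeats that of the same libraries with wildtype, where medians were -0.33 and -0.41. Levels of the injected cdkn1a transcript were lower with the MO, 239 against 298 CPM at stage 7 and 239 against 286 CPM at stage 8. Their part in the result was not tested.

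**Figure D3:**
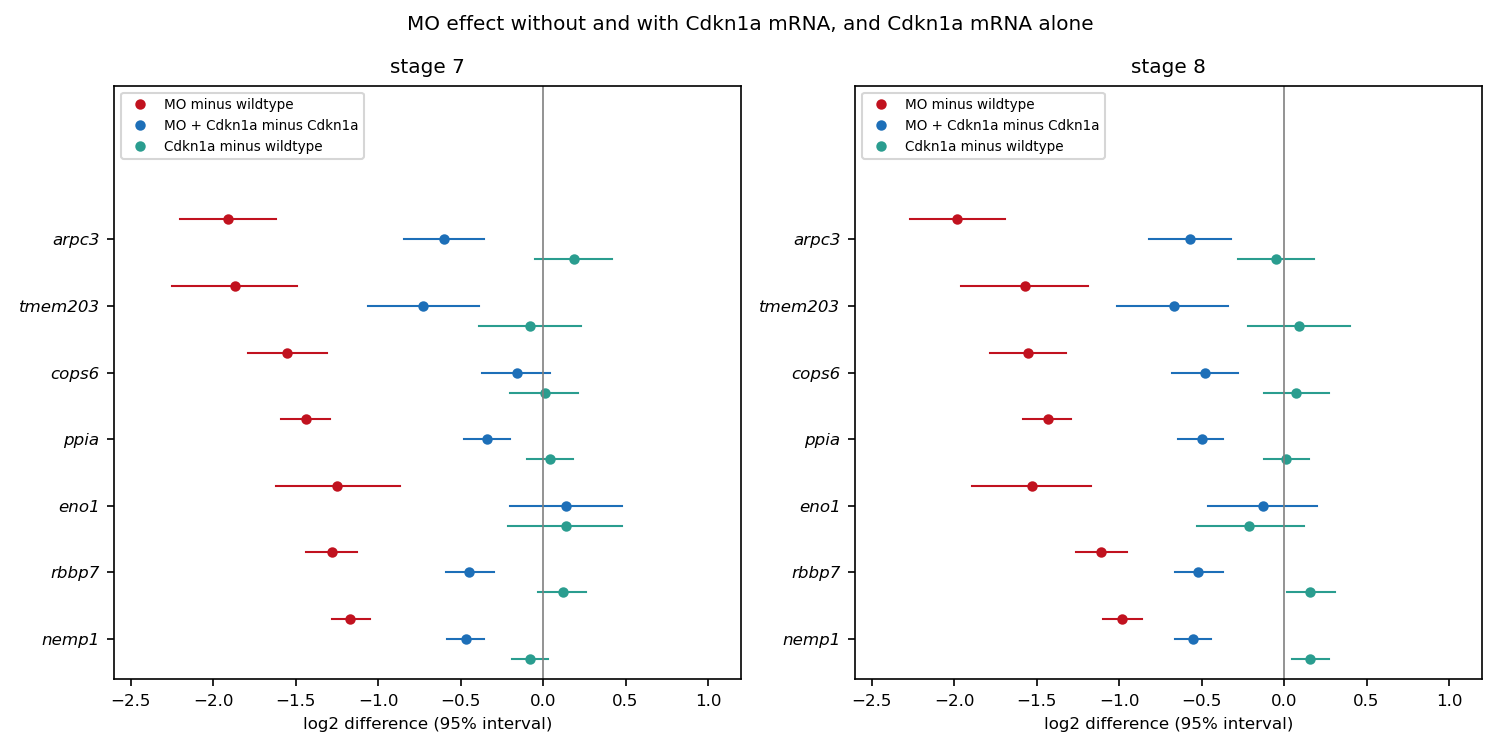
Log2 differences (horizontal axis, points with 95% intervals) of the 7 transcripts for MO minus wildtype, MO with Cdkn1a mRNA minus Cdkn1a mRNA, and Cdkn1a mRNA minus wildtype, 2 libraries per group. The first, which chose the set, run from -1.98 to -0.98, the second from -0.73 to 0.14 and the last from -0.21 to 0.19.

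E2f1 and deltaDBD mRNA were set beside each other in MO embryos, the construct beside its form named for the missing DNA-binding domain. Both groups were used to choose the set, so the differences are a description. At stage 7 the deltaDBD level of all but eno1 lay near that of the MO alone. For these the differences are close to those of E2f1 mRNA over the MO alone. For eno1 the level over the MO alone was higher by 0.38 with deltaDBD mRNA (95% interval -0.02 to 0.77) and by 0.08 with E2f1 mRNA (-0.33 to 0.49). At stage 7 the level was higher with E2f1 mRNA in all 4 pairings of libraries for 6 of the 7. The log2 differences were 1.0 for tmem203 (SE 0.20), 0.94 for arpc3 (SE 0.16), 0.64 for nemp1, 0.54 for rbbp7, 0.36 for cops6 and 0.29 for ppia. In contrast eno1 was at -0.30 (95% interval -0.70 to 0.10), lower in all 4 pairings. At stage 8 the same 6 were higher in all 4 pairings by less, with 0.65 for tmem203 (0.28 to 1.01), 0.40 for arpc3 (0.13 to 0.67), 0.33 for rbbp7, 0.32 for cops6, 0.31 for nemp1 and 0.21 for ppia, and eno1 was at 0.00 (-0.35 to 0.36). Over all 12883 tested genes, edgeR quasi-likelihood called 2914 higher and 3084 lower with E2f1 mRNA at stage 7, and 38 and 168 at stage 8 (adjusted p under 0.05). The share of all genes separate in all 4 pairings is not given, so nothing is read from the members' count. Whether the members' differences changed between the stages was not tested. Levels of the injected e2f1 transcript also differed between these groups, 3010 against 2110 CPM at stage 7 and 2730 against 2050 CPM at stage 8, and their part in the result was not tested.

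Between stages 6 and 7 in wildtype, eno1 rose 1.83-fold (log2 0.87, SE 0.17, adjusted p = 0.000519), ppia 1.32-fold and cops6 1.27-fold, and nemp1 fell 1.13-fold. These 4 calls of 7 compare with 56.3% of all tested genes called (edgeR quasi-likelihood), a like share. Between stages 7 and 8 the same 4 passed, where 36.7% of all genes did, with eno1 1.56-fold higher (log2 0.64, SE 0.15, adjusted p = 0.00477), cops6 and ppia 0.26 and 0.19 higher on the log2 scale and nemp1 0.22 lower. In each step taken alone arpc3, tmem203 and rbbp7 lay within 0.17 of no change, with 95% intervals from -0.48 to 0.40. The change from stage 6 to 8 was not tested. Over it the mean of arpc3 went from 15.7 to 19.4 CPM, tmem203 from 14 to 11.1 and rbbp7 from 134 to 132. From stage 6 to 7 the cops6 and nemp1 calls were lost without stage 6 replicate 1 (adjusted p = 0.0519 and 0.118) or stage 7 replicate 2 (0.0621 and 0.0508), which left 2 calls. From stage 7 to 8 the count was 2 without stage 8 replicate 1 (cops6 at 0.0985 and ppia at 0.0767) and 1 without stage 8 replicate 2, where eno1 was at 0.0711. There cops6 was also lost without stage 7 replicate 1 (0.249) and with DESeq2 (0.0628), and ppia without stage 7 replicate 2 (0.188).

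The step from stage 7 to stage 8 was also read in the groups with the MO, all of them used to choose the set, and is given as a description. With the MO and deltaDBD mRNA all 7 were higher at stage 8 in all 4 pairings of libraries. The log2 differences were 0.90 for arpc3 (SE 0.16), 0.70 for cops6, 0.61 for ppia, 0.56 for eno1 (95% interval 0.19 to 0.93), 0.45 for rbbp7, 0.40 for tmem203 (-0.02 to 0.82) and 0.23 for nemp1 (0.11 to 0.36). With E2f1 mRNA 5 of the 7 were higher in all 4 pairings, eno1 by 0.86 (SE 0.18), cops6 by 0.66, ppia by 0.53, arpc3 by 0.36 and rbbp7 by 0.25. There tmem203 was at 0.05 (-0.30 to 0.40), and nemp1 was lower in all 4 pairings, at -0.09 (-0.21 to 0.02). With the MO and Cdkn1a mRNA together the differences stayed between -0.08 and 0.06, and the widest 95% interval, that of tmem203, was -0.29 to 0.42. Over all 12883 tested genes, edgeR called 29 higher and 20 lower at stage 8 with deltaDBD mRNA (adjusted p under 0.05). The calls were 2917 and 2828 with E2f1 mRNA, and 6 and 12 with Cdkn1a mRNA. The share of all genes separate in all 4 pairings is not given, so nothing is read from the members' counts.

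With the MO alone the same step ran from -0.03 for nemp1 (95% interval -0.15 to 0.10) to 0.36 for eno1 (-0.04 to 0.76). These values turn on the stage 8 pair. Without its replicate 1, cops6, ppia, eno1 and rbbp7 were higher at stage 8 by 0.51, 0.38, 0.64 and 0.31, and without its replicate 2 cops6 and rbbp7 were at -0.02 and -0.08. In embryos given Cdkn1a mRNA alone, whose libraries were not used to choose the set, none of the 7 passed the test for this step. That held for edgeR quasi-likelihood, where 2.41% of all genes were called, and for DESeq2. The smallest adjusted p by edgeR were 0.0733 for cops6 and 0.193 for ppia. The log2 differences there ran from -0.10 to 0.33. Without a count filter cops6, ppia and eno1 passed, with adjusted p = 0.0357, 0.0448 and 0.000101.

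Across the 13 group means of log2 CPM, the members other than eno1 followed each other closely, and eno1 followed only some of them closely. Pearson's r between pairs ran from 0.499 for eno1 and nemp1 to 0.995 for cops6 and ppia, and without eno1 the lowest was 0.82. For eno1 it was 0.9 with cops6 and 0.88 with ppia, but 0.77 with arpc3, 0.72 with rbbp7 and 0.56 with tmem203. The points share libraries and the set was chosen for a common pattern, so these are descriptions only. Order of group means was not the same for all: the stage 6 wildtype level was the highest of the 13 for tmem203 and nemp1, and the tenth for eno1. For the 3 non-member genes most like each member, r lay between 0.965 and 0.992 among 9096 eligible genes, and 11 different genes were named. The gene mpst came first for arpc3, cops6, ppia and rbbp7 (r 0.992, 0.973, 0.981 and 0.986), tcp1 for tmem203 (0.98), cttnbp2 for eno1 (0.975) and bmp1 for nemp1 (0.989). None of the 3 genes most like eno1, cttnbp2, rbm5 and septin11, was among the 3 of another member.

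The set was also placed among the other genes called in those comparisons. There were 140 genes called lower with the MO at both stages, 1.09% of those tested. Of these, 130 were called higher with at least 1 co-injected mRNA at 1 stage or more, 1.01% of those tested. The 7 members were chosen on these same comparisons, so their place among the 130 follows from that choice and is no result. By summed MO difference, from the lowest, they stood at ranks 3 (arpc3), 5, 7, 8, 10, 12 and 19 (nemp1), which describes the choice only. A stricter set of 51, called higher with Cdkn1a mRNA at both stages, was 0.396% of those tested. That it holds the 7 follows from the choice as well. Of the 44 others in the stricter set, 34.1% lay on the minus strand. The 7 are few, and whether they differ from the 44 in strand was not tested. With Cdkn1a mRNA alone, 5 of the 44 were called at stage 7 and 7 at stage 8, where 4.75% and 6.22% of all tested genes were. The same edgeR test called 0 of the 7 members, which are too few to set against the 44. The wildtype libraries of this comparison were also used to choose the 44.

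The other genes of the complexes and pathways to which the 7 belong were described from lists. Of 103 genes listed in 7 lists, 94 were tested, and with the MO 14 were lower and 16 higher at stage 7, or 31.9% against 25.2% of all tested genes (edgeR quasi-likelihood). At stage 8 the counts were 2 lower and 3 higher, or 5.32% against 4.32%. Medians were -0.04 and 0.02, and none of the 94 differed 2-fold or more at either stage. The share of all tested genes with such a difference is not given, so nothing is read from that count. The stage 7 count was 19 without MO replicate 2, and the stage 8 count was 33 without MO replicate 1, 1 without wildtype replicate 1 and 2 without wildtype replicate 2.

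In the Arp2/3 complex, arpc4 fell by 0.18 (adjusted p = 0.0242) and arpc5l rose by 0.39 (adjusted p = 0.00485) at stage 7 by the edgeR test, arpc2 was at -0.16, and none of the 8 passed at stage 8. Of the COP9 signalosome only cops7b passed, with a rise of 0.15 at stage 7, while gps1 was at -0.11 and cops3 at 0.13. Among 15 cyclophilins, relatives of ppia, ppic fell by 0.44 and ppih by 0.24 at stage 7, and ppwd1 was at -0.12. For glycolysis 1 of 16 fell, the hexokinase gene hk2 by 0.32, and 4 rose, among them pkm by 0.22 and pgk1 by 0.27, the latter also by 0.28 at stage 8. The list around rbbp7 had 3 lower and 3 higher of 20, with the deacetylase gene hdac1 falling by 0.18 and ezh2 and gatad2a rising by 0.22 and 0.48. The near relative of rbbp7, rbbp4, was at 0.07 at stage 7. Of 15 nuclear envelope genes 3 fell, among them the lamin genes lmnb3 by 0.21 and lmnb1 by 0.12, and 2 rose, among them lmnb2 by 0.21. Of 12 calcium handling genes of the endoplasmic reticulum 4 fell and 5 rose at stage 7. Of these, itpr1 and calr rose by 0.42 and 0.24, and the chaperone gene canx fell by 0.40 at stage 7 and by 0.35 at stage 8. Besides pgk1 and canx, the listed genes called at stage 8 were gatad2a at 0.2, nktr at -0.2 and banf1 at 0.16. At stage 7 banf1 was called lower, at -0.17. No other gene named here was called at stage 8. There itpr1 was at -0.14, ppic at 0.02 and hdac1 at 0.03, while hk2 at -0.12 and calr at 0.12 kept their sign.

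**Figure D4:**
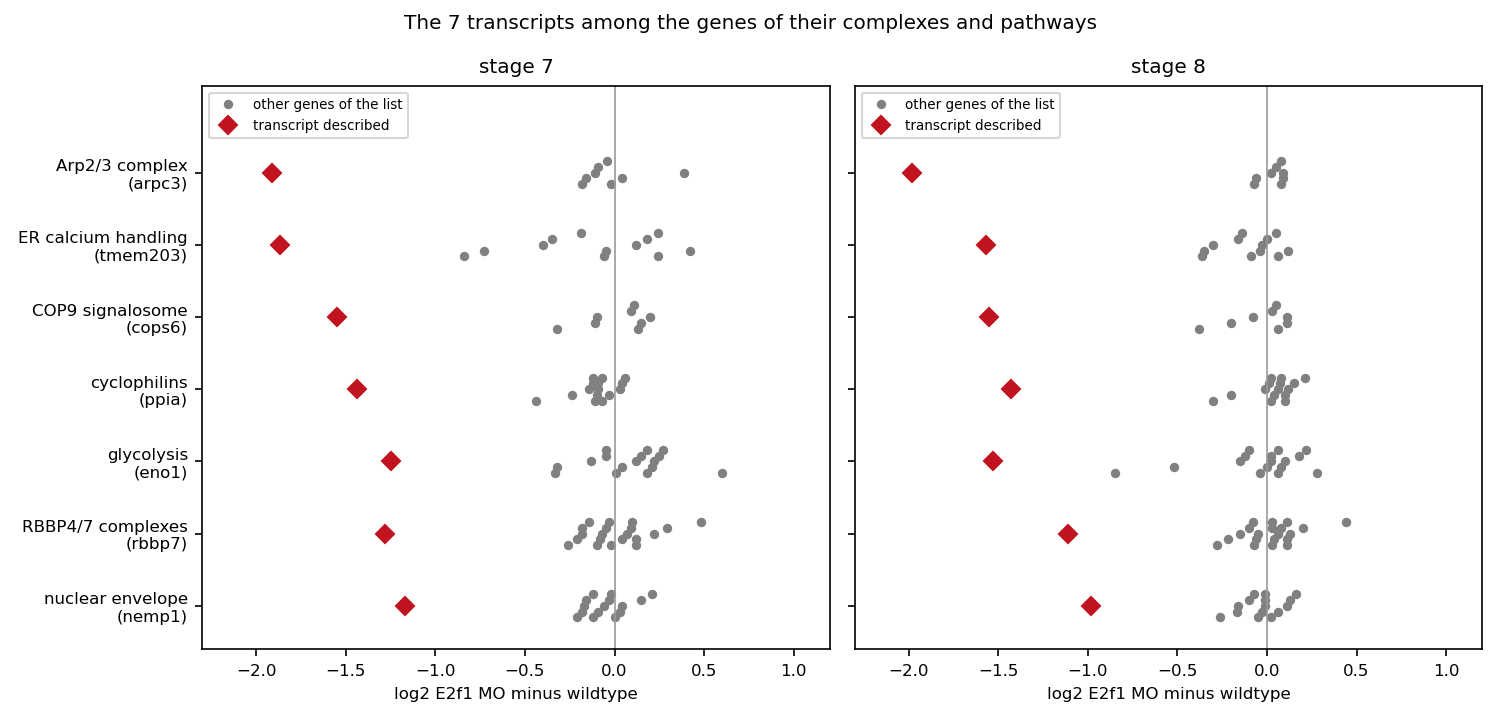
Log2 difference of MO minus wildtype (horizontal axis) at stages 7 and 8 for each of the 7 transcripts (diamonds) and the tested genes of its complex or pathway (circles, 94 in all, 2 libraries per group). Circles lie between -0.85 and 0.60, and diamonds, whose differences chose the set, between -1.98 and -0.98.

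The nearest tested genes on either side of each member were read in the same contrast. Of 14 neighbours 2 were lower and 1 was higher at stage 7, where 25.2% of all tested genes were called, and none passed at stage 8 (edgeR quasi-likelihood). Those lower were mcm7 beside cops6 (-0.19, adjusted p = 1.5e-05) and gpr157 beside eno1 (-0.20, adjusted p = 0.00255). The higher one was sia3, beside cops6, with 0 counts in stage 7 wildtype and 31 in stage 7 MO libraries. Some members start next to a gene on the other strand that runs away from them. Thus gpn3 begins 29 bases from arpc3, and it stood at 46.2 CPM in stage 7 wildtype and 45.8 CPM with the MO, a log2 difference of -0.01 (95% interval -0.15 to 0.13). In the same arrangement ndor1 lies 33 bases from tmem203 and differed by -0.06 (-0.19 to 0.07). Likewise LOC116409787 lies 116 bases from ppia, with only 46 and 32 counts and a difference of -0.55 (-1.36 to 0.27). At stage 8 gpn3 and ndor1 were at -0.03 and 0.11. The stage 7 differences of arpc3 and tmem203 were -1.91 and -1.87, but these chose the set. Whether they differ from those of gpn3 and ndor1 was therefore not tested.

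**Figure D5:**
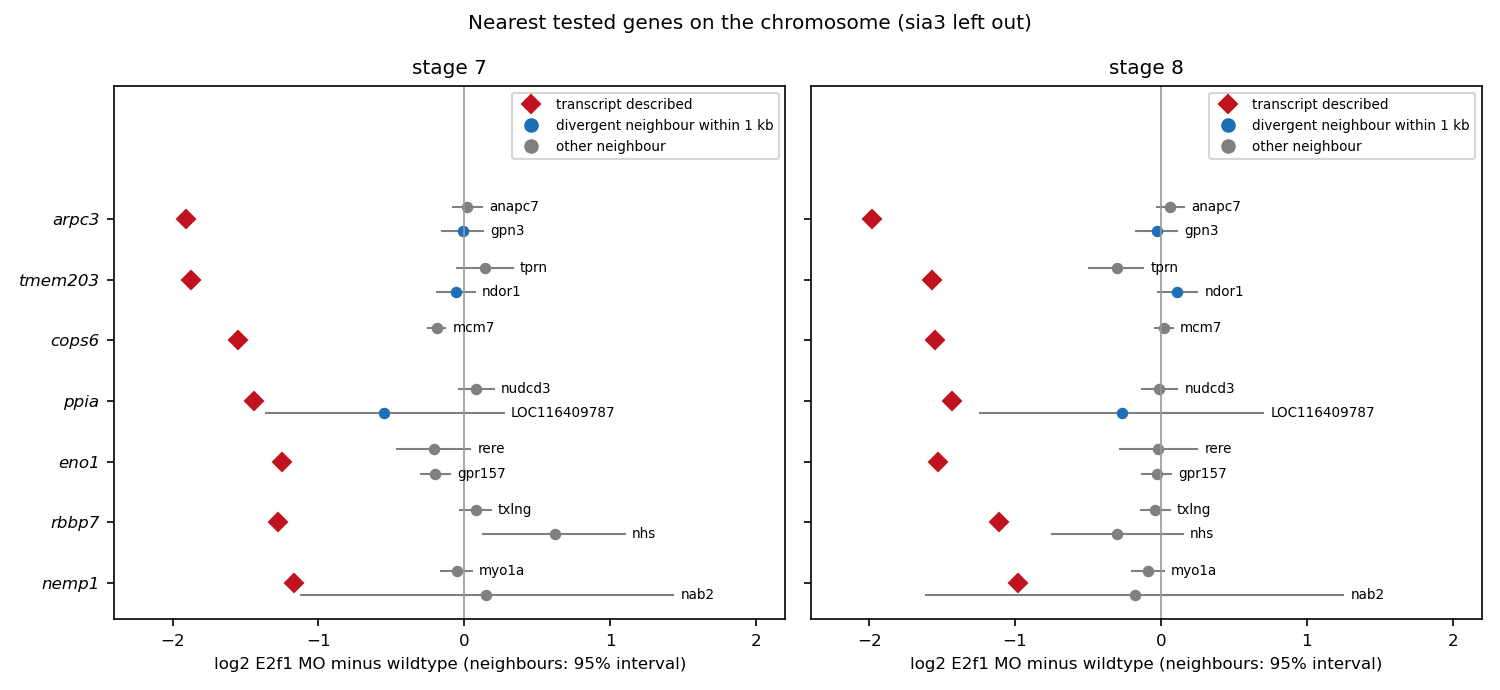
Log2 difference of MO minus wildtype (horizontal axis) at stages 7 and 8 for the 7 transcripts (diamonds) and the nearest tested gene on either side (circles with 95% intervals, 2 libraries per group), without sia3, which has 0 counts in a group. The divergent neighbours gpn3 and ndor1 lie at -0.01 and -0.06 at stage 7, beside -1.91 for arpc3 and -1.87 for tmem203, differences that chose the set.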

How the data were processed

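The deposited table gives whole-number fragment counts per gene, not normalized by the authors. Per the submitters' processing notes, reads were handled with fastp, STAR 2.7.0e, featureCounts 2.0.1 and deepTools, and the file headers record reverse-stranded counting of pairs in the v10 build. The measured molecule was polyA RNA, per the labels, taken up in stranded mRNA libraries. Groups came from the labels and columns from their names.

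Library sizes were adjusted with TMM factors of 0.872 to 1.061, and the 12883 genes kept by filterByExpr were fitted with edgeR 4.0.16 in R 4.3.3, as 1 robust quasi-likelihood model with 13 group means and 13 residual degrees of freedom (biological coefficient of variation 3.93%). P-values were adjusted by Benjamini-Hochberg over all tested genes, and an adjusted p under 0.05 was called. Intervals are 95%. Scripts were tested on simulated data.

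Members and gene lists were chosen with earlier results of these data known. Named genes were the members, the 3 genes of smallest stage 7 p per list, 14 neighbours, and the 3 genes of highest correlation per member (mean of 5 CPM or more). The genes rbbp4, nktr and banf1 were chosen after their values were seen. Tests planned between groups that carry the MO were replaced by descriptions, because those groups chose the members. Alternatives were DESeq2 1.42.0 or its size factors, a fit to the compared stages alone, a replicate block, removal of the injected transcripts or of the count filter, and leaving out each library. Sequences were not used here.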

Additional observations from a re-analysis of the deposited data

How the results depend on the processing

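No called member difference had the other sign under an alternative, in 80 values. Of 270 values of differences that were not called, 11 had the other sign, none of them past the threshold and none over 0.09 in size before or 0.08 after. Of the tested log2 differences under alternatives, 333 kept their side of the threshold, 12 lost it and 5 gained it. Of the described differences 1526 moved by less than 1 SD and 10 by more. Leaving out 1 of 2 libraries moves a group mean by less than the SD of that pair. For those settings the count could therefore hardly come out otherwise, and it does not show stability. The tmem203 difference between MO and wildtype at stage 8, for example, ran from -2.01 to -1.21 over the alternatives. Changes of sign were counted only for the larger differences. There 4 took the other sign, all in the step from stage 7 to 8 with the MO alone. These were tmem203 (-0.06 without stage 7 replicate 2), and tmem203, cops6 and rbbp7 without stage 8 replicate 2. Over the libraries left out the ranges were -0.31 to 0.49 for tmem203, -0.02 to 0.51 for cops6 and -0.08 to 0.31 for rbbp7. Some smaller described differences also changed sign without being counted. Among them were arpc3 in the same step (0.07, as low as -0.08) and eno1 with E2f1 mRNA added at stage 7 (0.08, as low as -0.11). Of the shares regained, 13 of 42 moved by more than 1 SD on the linear scale, and 2 of the values did so when a library was left out, a setting chosen after seeing the data. The count of 2 has the same limit where the library left out carried the MO. Deviations of same-numbered libraries correlated at -0.20 to 0.17 (median 0.02) over 78 pairs of groups, so no strong shared deviation was seen. That cannot show whether same-numbered libraries share a clutch. With a replicate block 4 of 7 members passed in wildtype from stage 6 to 7 and 4 from stage 7 to 8, and no member count changed. The promoter motif alternative was not run, since no sequence was used here.

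Leaving out each library in turn gave 2 to 4 called members in wildtype from stage 6 to 7 and 1 to 3 from stage 7 to 8. Of the complex and pathway genes, 19 to 25 were called with the MO at stage 7 and 1 to 33 at stage 8. Over all genes the calls were 1922 to 2445 for the MO at stage 7 (3243 with all libraries) and 202 to 3015 at stage 8 (556). For Cdkn1a mRNA they were 43 to 149 at stage 7 (612), 408 to 477 at stage 8 (801) and 79 to 128 for the step between them (310).

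With the stages compared alone in the fit, 1 member passed for Cdkn1a mRNA at stage 7. All-gene calls were then 1892 and 482 for Cdkn1a mRNA at stages 7 and 8, and 205 for the MO at stage 8, with 2 complex and pathway genes. Without a count filter, 1 member passed for Cdkn1a mRNA at stage 8 and 3 for its step from stage 7 to 8. The MO at stage 8 then had 946 calls, with 9 complex and pathway genes. The cause was not tested. For likeness, 9 of 21 named pairs were also among the first 3 by Spearman's rho and 16 of 21 without stage 6. At 45 to 75 counts in the MO libraries, tmem203 is the member that depth limits most.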
